A study of Homo sapiens with 7 samples.

Results

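The ONECUT genes ONECUT1, ONECUT2 and ONECUT3 encode the human ONECUT transcription factors. ONECUT1 encodes HNF6, the protein that was itself immunoprecipitated in the HNF6 libraries of this series. Listed binding regions were assigned to a gene when their midpoint lay within 200 kb of its hg19 span, which gave 97 regions of the 86081 in the 4 peak lists. Of these, 78 came from the HNF6 list of day 10 (of 64919), 2 from the HNF6 list of day 5 (of 250), 9 from the GATA6 list of day 10 (of 6285) and 8 from the NKX6.1 list of day 13 (of 14627). The 3 genes were chosen on measured values of these lists, among them the position of the highest HNF6 score of day 10, so the counts and scores near them are a description and were not tested. All 97 regions are accounted for below, and none was removed for a low score.

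ONECUT proteins bind DNA through a cut domain and a homeodomain. ONECUT1 is needed in mice for formation of the endocrine pancreas and the biliary tract, and it acts upstream of NEUROG3, the inducer of endocrine progenitors. ONECUT2 is its close relative in the foregut, liver and nervous system, and ONECUT3 is the remaining member of the family. A transcription factor that occupies regions around its own gene is a common feature of cell identity regulators, and chromatin immunoprecipitation and sequencing locates such occupancy without showing what it does to expression.

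The libraries were made from CyT49, an established human embryonic stem cell line, differentiated in culture toward pancreas without a labelled genetic change. The titles name CyT49 for days 5 and 10, and those of day 13 name no cell line. HNF6 was profiled on day 10 (labelled PE stage) and on day 5 (labelled GTE stage), GATA6 on day 10 (PE stage) and NKX6.1 on day 13 (PP stage). The 3 inputs of days 5, 10 and 13 were not analysed here. Each combination of factor and day is represented by a single library, which leaves every difference without replicates and without a p-value. The extraction protocol names an NKX6.1 antibody for every sample, whereas the antibody field gives the factor in the title. The title of the day 5 library reads HNF only, and this library was grouped as HNF6. Whether the HNF6 antibody also recognises ONECUT2 or ONECUT3 protein was not tested. In a bulk culture, occupancy in more cells and stronger occupancy per cell cannot be told apart.

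The 5′ ends are shown first, because the HNF6 list of day 10 placed a weak region at each of them. The start of the ONECUT1 span on chromosome 15 lay inside a region at 53082156 to 53082433 (hg19) with a score of 13, the lowest in the list. The start of the ONECUT2 span lay inside a region on chromosome 18 at 55102597 to 55102943 with a score of 25, at percentile 4.98 of the list. For ONECUT3 a region on chromosome 19 at 1753270 to 1753619 ended 43 bp before the span and scored 17, at percentile 1.32. A percentile here is the percent of the regions of the same list with a lower score, with ties counted in equal parts. The 250 bases before the RefSeq start are printed 5′ to 3′ in the direction of the gene, from GRCh38.p14, at chr15:52790337-52790586 on the minus strand for ONECUT1 and at chr18:57435124-57435373 on the plus strand for ONECUT2. They were matched by gene symbol for 2 of the 3 genes and were not aligned to the hg19 regions. Capitals mark TTGATT, letters found within the site HNF6 is known to bind.
ONECUT1: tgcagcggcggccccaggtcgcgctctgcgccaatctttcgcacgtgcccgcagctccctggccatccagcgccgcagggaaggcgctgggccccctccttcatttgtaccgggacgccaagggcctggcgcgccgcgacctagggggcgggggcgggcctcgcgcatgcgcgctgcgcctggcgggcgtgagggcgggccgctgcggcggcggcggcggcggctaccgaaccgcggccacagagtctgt
ONECUT2: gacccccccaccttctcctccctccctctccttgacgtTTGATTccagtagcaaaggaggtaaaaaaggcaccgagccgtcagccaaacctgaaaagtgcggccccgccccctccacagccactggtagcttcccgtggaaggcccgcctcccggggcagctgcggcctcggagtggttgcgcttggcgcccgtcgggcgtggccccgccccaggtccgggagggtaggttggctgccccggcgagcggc

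Both upstream sequences were above the median in G and C, with 76.8% for ONECUT1 and 68.8% for ONECUT2, against 58.0% over 35116 RefSeq promoters. Of these promoters, 92.5% were lower than ONECUT1 and 76.6% lower than ONECUT2. ONECUT1 had 37 CpG dinucleotides in its 250 bases and ONECUT2 had 20, against a median of 11. Fewer were present in 96.0% of the promoters for ONECUT1 and in 67.6% for ONECUT2. On both strands, TTGATT was found once in ONECUT2, with its first base 212 bases before the start, and not in ONECUT1. It was present in 9.09% of the promoters. ATTGAT, which shares 5 letters with TTGATT and overlaps it where a T follows, was in neither sequence and in 5.58% of the promoters. AGATAA, which zinc finger factors such as GATA6 are known to bind, was in neither and in 9.17% of the promoters, and TTAAT, part of the site of NKX6 factors, was in neither and in 22.7%. These matches describe the letters in these windows alone.

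HNF6 regions of day 10 were dense around all 3 genes. ONECUT2 had 34 in its window of 456 kb, ONECUT1 had 24 in 433 kb and ONECUT3 had 20 in 422 kb. These counts corresponded to 74.6, 55.4 and 47.4 regions per Mb, against 21.3 per Mb over the whole list. On day 10, HNF6 had regions near every ONECUT gene, while on day 5 it had 2 near ONECUT3 and 0 near ONECUT1 and ONECUT2. As shares, 0.12% of the day 10 list and 0.8% of the day 5 list lay near the 3 genes. The day 5 list had 0.0819 regions per Mb, so a count of 0 in a single window says little. The day 10 list was far longer than that of day 5, read depth is unknown for both, and the day and the library cannot be told apart.

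**Figure D1:**
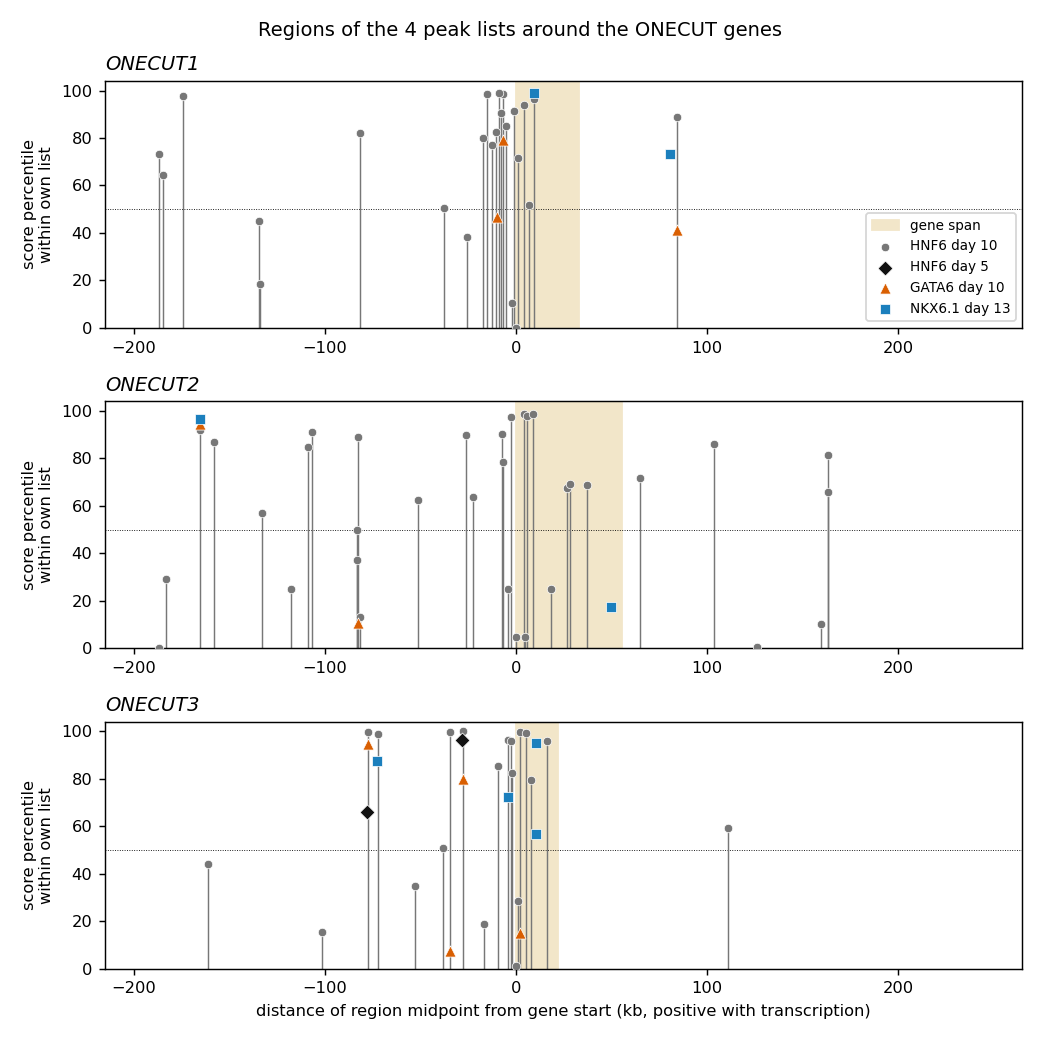
Each panel shows 1 gene, with the distance of each region's midpoint from the gene start in kb on the x axis and its score percentile within its own list on the y axis. Grey stems are HNF6 regions of day 10, and symbols mark the other 3 lists. The stems crowd around the start of all 3 genes, and both day 5 regions lie upstream of ONECUT3.

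The day 10 regions were placed unevenly on the 2 sides of the genes. At ONECUT1, 19 regions had their midpoint upstream, 4 inside the span and 1 downstream. At ONECUT3 the numbers were 14, 5 and 1, and at ONECUT2 they were 20, 8 and 6. Upstream and downstream at ONECUT3 rest on its plus strand, which was taken from the rule's naming of the strongest region as upstream and not from an annotation. The longest stretch between neighbouring HNF6 midpoints of a window ran from 9.3 to 84.3 kb past the start of ONECUT1, and from 16.1 to 111 kb past the start of ONECUT3. The downstream flank of each of these genes thus held 1 listed HNF6 region. At ONECUT2 the longest such stretch was 38.7 kb. The stretch from the last midpoint to the downstream window edge was longer, at 148.7 kb for ONECUT1, 92.1 kb for ONECUT2 and 110.8 kb for ONECUT3. In the RefSeq gene order the protein-coding neighbours are ATOSA and WDR72 for ONECUT1, ST8SIA3 and FECH for ONECUT2, and TCF3 and ATP8B3 for ONECUT3. Regions were assigned to the window of the ONECUT gene only, and which other gene lay closest was not tested.

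At the window edges, the HNF6 region of day 10 farthest inside lay 187 kb upstream of ONECUT1 (score 158), 187 kb upstream of ONECUT2 (score 15) and 161 kb upstream of ONECUT3 (score 70). The nearest region outside was 200.3 kb from the ONECUT2 span (score 51), 229 kb from that of ONECUT1 (score 68) and 255 kb from that of ONECUT3 (score 215).

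The regions near the ONECUT genes ranked high in their list. The median percentile was 83.9 at ONECUT3, 81.1 at ONECUT1 and 68.2 at ONECUT2, where a list taken as a whole has 50. Scores ran from 17 to 4510 with a median of 258 at ONECUT3, from 13 to 1458 with a median of 220.5 at ONECUT1, and from 15 to 1399 with a median of 131 at ONECUT2. The median of all day 10 HNF6 regions was 79. In the highest score decile, with scores above 392, were 9 of the 20 regions at ONECUT3, 8 of 24 at ONECUT1 and 7 of 34 at ONECUT2. That made 24 of 78, or 30.8% (Wilson 95% interval 21.6 to 41.7, counting error only), against 9.9% of the list. The genes were chosen in part on these scores, and clustered regions are not independent, so the interval is no test of this difference. In the highest 1% of the list, with scores above 1543, were 5 regions at ONECUT3 and 0 at the other two genes, against 1.0% of the list. Weak regions were present as well, since 23 of the 78 ranked below the median of the list. The regions were also wider, with a median of 349.5 bp against 261 bp in the list. The authors had listed 6 of the 78 with several summits, 4 of them at ONECUT1 and 2 at ONECUT3, against 2.11% of the list.

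Strong regions gathered around the starts of ONECUT1 and ONECUT2. Within 20 kb of a start, 17 of 36 regions were in the highest decile, and beyond 20 kb it was 7 of 42. Within and beyond, it was 7 of 15 and 1 of 9 at ONECUT1, and 5 of 10 and 2 of 24 at ONECUT2. At ONECUT3 it was 5 of 11 and 4 of 9, so the share there was similar on both sides of 20 kb. The median percentile within and beyond this distance was 85.1 and 64.5 at ONECUT1, 84.3 and 66.8 at ONECUT2, and 85.5 and 59.4 at ONECUT3. The ranges overlapped at each gene, because the weak regions at the 5′ ends were among the near ones and 4 strong regions lay far upstream of ONECUT3. The distance was chosen after the layout had been seen.

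**Figure D2:**
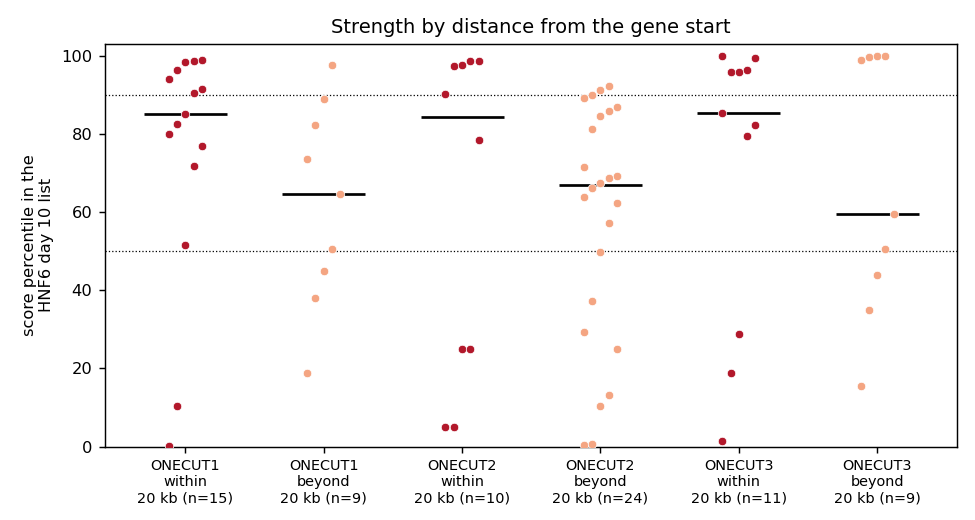
The y axis gives the score percentile of each HNF6 region of day 10 in its list, by gene and by distance from the gene start (within or beyond 20 kb). Points are regions, black bars are medians and dotted lines mark percentiles 50 and 90. Near medians lie between 84.3 and 85.5 and far medians between 59.4 and 66.8, with wide overlap.

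ONECUT1, the gene of HNF6 itself, carried a chain of HNF6 regions across its 5′ end. Between 17.4 kb upstream and 9.3 kb into the gene, 15 regions were listed, and 7 of them were in the highest decile. The strongest lay upstream on chromosome 15 at 53090720 to 53091240 (score 1458, rank 737 of the list, 8.8 kb before the start). The next was at 53088743 to 53089435 (score 1342, 6.9 kb before the start), and a region of 1296 bp with 3 summits followed at 53096740 to 53098035 (score 1258, 15.2 kb before the start). Inside the gene the strongest was at 53072658 to 53073130 (score 805, 9.3 kb past the start), and another was at 53077566 to 53078163 (score 587). One strong region lay 174 kb upstream, at 53256110 to 53256856 (score 1016), with 2 weaker regions at 184.5 and 186.7 kb. The weak region over the start thus had a region of score 449 1.2 kb upstream and one of score 149 1.0 kb inside.

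ONECUT2 had its strongest HNF6 regions in the first part of the gene. They were at 55111638 to 55112220 on chromosome 18 (score 1399, 9.0 kb past the start), at 55106624 to 55107251 (score 1366, 4.0 kb) and at 55108228 to 55108777 (score 1047, 5.6 kb). A region at 55099964 to 55100460 (score 987) lay 2.7 kb upstream. Further along the gene, regions at 26.6, 28.2 and 37.1 kb had scores of 130, 137 and 132, all below the highest decile. Upstream the regions came in loose groups, such as 4 between 83.2 and 81.6 kb with scores from 35 to 364. The fifth in strength, at 54937370 to 54938102 (score 475), lay 165 kb upstream.

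ONECUT3 held the highest-scoring region of the day 10 HNF6 list. It was on chromosome 19 at 1725173 to 1726300 (score 4510), 1128 bp wide and centred 27.9 kb upstream of the gene. It was not alone, since regions with ranks 51, 89 and 132 of 64919 lay in the same window. They were inside the gene at 1755148 to 1756217 (score 3023, rank 51, 2.0 kb past the start), upstream at 1718677 to 1719288 (score 2689, rank 89, 34.7 kb) and upstream at 1675579 to 1676478 (score 2429, rank 132, 77.6 kb). A second region inside the gene, at 1758440 to 1759201 (score 1792), had rank 419. Around the start, regions 4.0 and 2.8 kb upstream scored 815 and 739, and one 16.1 kb past it scored 736. The highest ranks at ONECUT1 and ONECUT2 were 737 and 810. Without the 4510 region, the best rank at ONECUT3 was still ahead of the best at the other two genes.

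**Figure D3:**
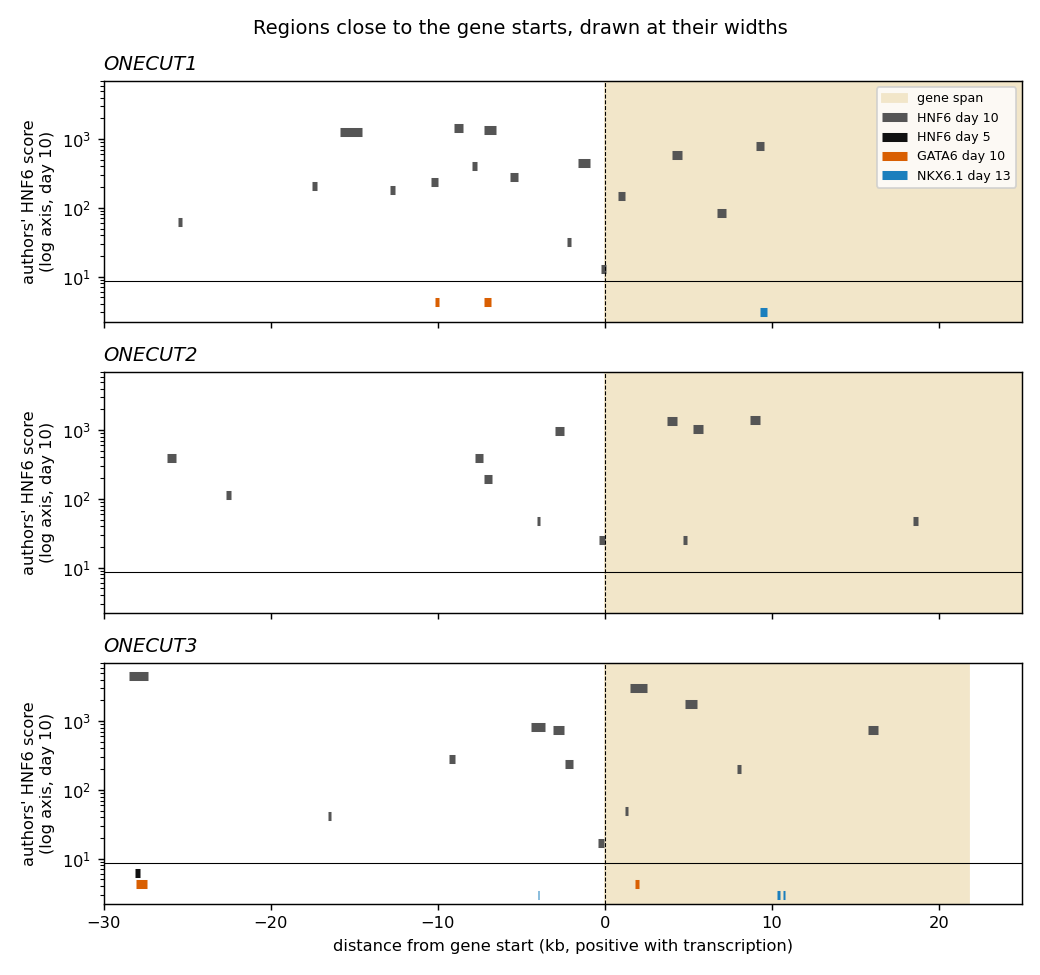
Regions within 30 kb upstream and 25 kb downstream of each gene start are drawn at their widths, with the distance in kb on the x axis. HNF6 regions of day 10 are placed at the authors' score on a log axis, and below the line the other lists are drawn at a fixed height with no score. A region of low score (13, 25 and 17) sits at each start between stronger ones.

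HNF6 regions of day 10 were closely packed at all 3 genes. For every HNF6 region of day 10, the other HNF6 regions with a midpoint within 12.5 kb were counted. The median was 8 at ONECUT1, 3 at ONECUT3 and 2 at ONECUT2, against 1 over the whole list. At this distance the most crowded region of all 64919 lay upstream of ONECUT1, at 53087388 to 53087856 on chromosome 15, with 13 neighbours. Within 50 kb the highest number was 17 at ONECUT1, against 19 in the list, and within 5 kb it was 6, a number reached by 6 regions of the list. All 9 regions of the list with at least 10 neighbours were at ONECUT1. The most crowded regions had 9 neighbours at ONECUT3, at 1749272 to 1750086, and 8 at ONECUT2, at 55106624 to 55107251. Of the 34 regions with at least 8 neighbours, 0.0524% of the list, 25 were near ONECUT genes, with 13 at ONECUT1, 8 at ONECUT3 and 4 at ONECUT2.

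Neighbours of the highest decile were then counted alone. In the whole list 90.3% of the regions had no such neighbour within 12.5 kb. At least 4 were found for 22 regions, 0.0339% of the list, and all 22 lay near the ONECUT genes, with 12 at ONECUT1 and 5 each at ONECUT2 and ONECUT3. The 4 regions with 6 strong neighbours, the highest number in the list, were all at ONECUT1. The cutoff of 4 was the highest number of strong neighbours that at least 20 regions of the list reached. Within 5 kb the same rule gave a lower cutoff of 2, reached by 163 regions, of which 22 were near ONECUT genes. Where the regions with more strong neighbours within 5 kb lay is not given here. Because clustered regions share neighbours, the counts near ONECUT genes are not independent observations, and they rest on 3 loci in 1 library. How the peak caller divided broad enrichment into regions would change such counts and was not tested.

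**Figure D4:**
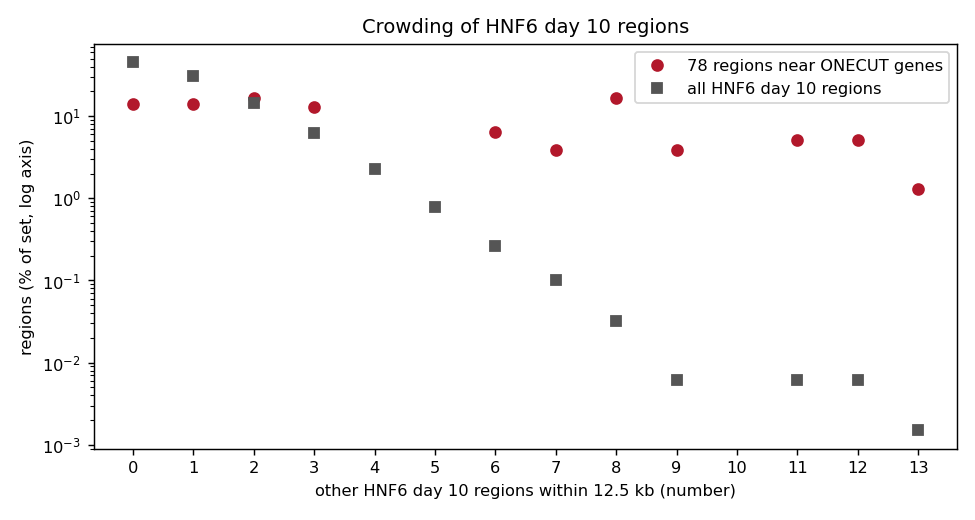
The x axis gives the number of other HNF6 regions of day 10 within 12.5 kb, and the y axis the percent of regions with that number on a log axis, for the 78 regions near ONECUT genes (circles) and for all 64919 (squares). The circles extend to 13 neighbours, and wherever a circle is drawn at 6 or more it lies above its square.

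HNF6 on day 5 was found at 2 of the regions that were strong on day 10, both upstream of ONECUT3. The strongest region of day 10 (score 4510) contained a day 5 region of 342 bp at 1725520 to 1725861 with a score of 523, rank 10 of the 250 of its list. The region at 1675579 to 1676478 (score 2429 on day 10) contained a day 5 region of 251 bp at 1675778 to 1676028 with a score of 174, rank 85. On day 10 the 2 regions were thus wider, at 1128 and 900 bp. Listed regions of day 10 were wider in general, with a median of 261 bp against 221 bp on day 5. In all, 2 of 78 regions of day 10 overlapped a day 5 region, or 2.56% (0.706 to 8.88), against 0.347% of the list. Both were in the highest day 10 decile, with 2 of the 24 members there, against 1.51% of that decile in the list. The genes were chosen in part on the region of score 4510, so the interval is no test of this difference. The other strong regions of ONECUT3, with day 10 scores of 3023 and 2689, had no region in the day 5 list. Scores of different lists have no common scale and were not compared.

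Listed GATA6 regions lay at 9 of the 78 HNF6 regions, or 11.5% (6.19 to 20.5), against 9.66% of the HNF6 list, a share near the background. Clustered regions are not independent, so the interval is no test of this difference. All GATA6 regions in this list overlap an HNF6 region of day 10, and the list holds part of the numbered GATA6 peaks, so an HNF6 region without one may still have a GATA6 peak that was not analysed here. GATA6 is a zinc finger factor required for human pancreas formation. The HNF6 regions with GATA6 had a median score of 1342, against 137 for those without. By gene these medians were 2856 and 151 at ONECUT3, 357 and 183 at ONECUT1, and 419.5 and 125.5 at ONECUT2. The gap was widest at ONECUT3, which also held the highest HNF6 scores. The medians with GATA6 rest on 4 regions at ONECUT3, 3 at ONECUT1 and 2 at ONECUT2. In the highest HNF6 decile, 6 of the 24 members overlapped GATA6, against 35.6% of that decile in the list. Over the whole list, GATA6 was likewise more frequent in this decile than among all HNF6 regions (9.66%). A link of GATA6 with high HNF6 scores is therefore not particular to these genes. Whole-list median scores with and without GATA6 are not given here. GATA6 was found at 4 of the 20 HNF6 regions of ONECUT3, 3 of 24 at ONECUT1 and 2 of 34 at ONECUT2.

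GATA6 scores at these regions ranged from 32 to 777. At ONECUT3 the 4 HNF6 regions with GATA6 were the 4 strongest. Their GATA6 scores were 279 at the HNF6 score of 4510, 43 at 3023, 32 at 2689 and 777 at 2429. The GATA6 scores of 43 and 32 stood at percentiles 14.9 and 7.56 of the GATA6 list, and that of 777 at 94.9. At ONECUT1 GATA6 had scores of 268 and 96 at the HNF6 regions 6.9 and 10.2 kb upstream, and 83 at the region 84.3 kb past the start. At ONECUT2 the GATA6 scores were 758 and 37, at regions 165 and 82.4 kb upstream, and none was listed within 20 kb of the start.

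NKX6.1, the homeodomain factor that marks pancreatic progenitors and later beta cells, had 8 regions near the 3 genes on day 13. Its density was 9.48 per Mb at ONECUT3, 4.62 at ONECUT1 and 4.39 at ONECUT2, against 4.79 per Mb over its list. Its strongest region was at ONECUT1, inside the gene on chromosome 15 at 53072483 to 53072936 (score 476, rank 157 of 14627). It overlapped the HNF6 region of score 805 that lay 9.3 kb past the start, and its midpoint was 184.5 bp away. The other ONECUT1 region, at 53001463 to 53001543 (score 86), lay 3.6 kb from the nearest HNF6 midpoint.

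NKX6.1 overlapped 4 of the 78 HNF6 regions, or 5.13% (2.01 to 12.5), against 3.2% of the HNF6 list. They were 4 of the 24 members in the highest HNF6 decile, in which 11.2% of the list overlapped NKX6.1. The interval is no test of the difference from the list, because clustered regions are not independent. At ONECUT3 a region at 1681155 to 1681282 (score 144), 72.4 kb upstream, lay 15.5 bp from the HNF6 midpoint. Another at 1749636 to 1749720 (score 83), 4.0 kb upstream, lay 1.0 bp from it. The remaining ONECUT3 regions lay inside the gene, at 1763989 to 1764159 (score 62) and 1764333 to 1764455 (score 249), 2.38 and 2.70 kb from the nearest HNF6 midpoint. At ONECUT2 an NKX6.1 region at 54937386 to 54937785 (score 307) lay 165 kb upstream, and one of score 28 lay inside the gene at 55152687 to 55152788, 12.8 kb from the nearest HNF6 midpoint. Of the 8 NKX6.1 regions, 4 thus overlapped HNF6, against 14.3% of the NKX6.1 list. That share is not a like background, because these windows held 59.5 HNF6 regions of day 10 per Mb, against 21.3 over the list.

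Of the 78 HNF6 regions, 1 overlapped both GATA6 and NKX6.1, against 1.15% of the list, a share near the background. It lay 165 kb upstream of ONECUT2 on chromosome 18, with HNF6 at 54937370 to 54938102 (score 475), GATA6 at 54937297 to 54937872 (score 758) and NKX6.1 at 54937386 to 54937785 (score 307). These scores stood at percentiles 92.2, 94.5 and 96.8 of their lists. The strongest HNF6 region, upstream of ONECUT3, held HNF6 of both days and GATA6 without a listed NKX6.1 region. Within it the GATA6 midpoint lay 211 bp from that of HNF6 on day 10, and the day 5 midpoint lay 46 bp from it. The region 77.6 kb upstream of ONECUT3 had the same makeup, with the GATA6 midpoint 2.5 bp from that of HNF6.

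**Figure D5:**
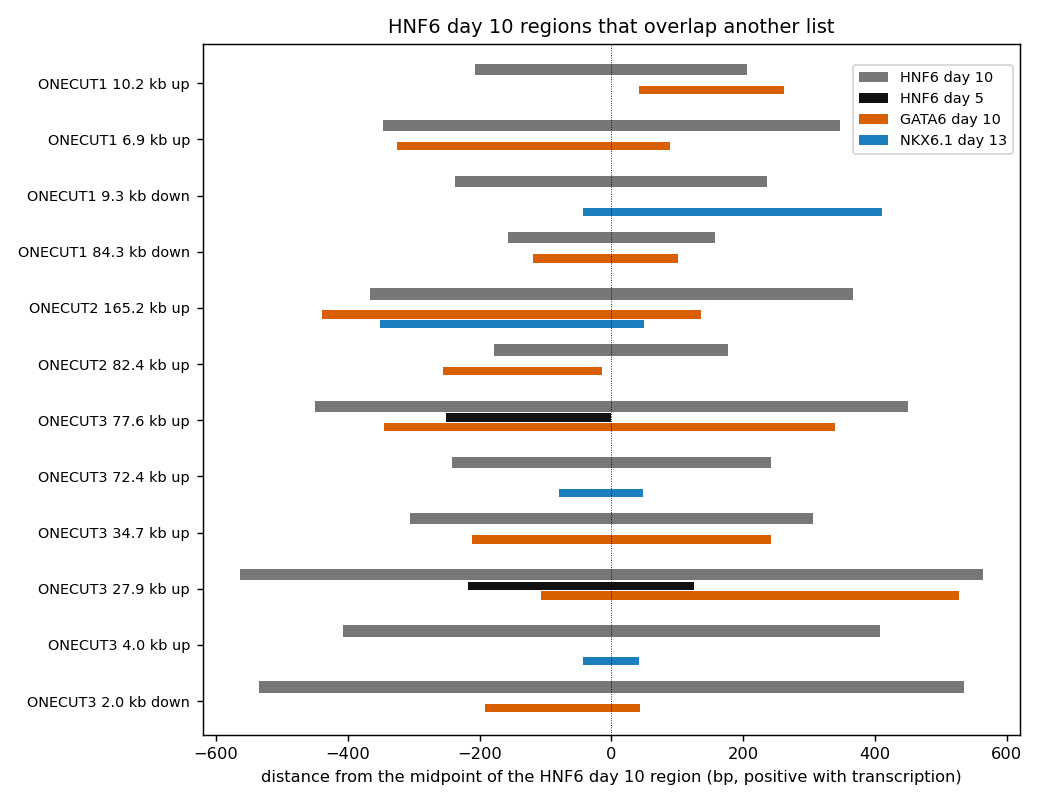
Each row is an HNF6 region of day 10 that overlaps another list, named by its distance from the gene start, with positions in bp relative to its midpoint on the x axis and bars drawn at the width of each region. Grey bars are HNF6 on day 10, and the bars under them are the other lists. The day 10 bars of 1128 and 900 bp contain day 5 bars of 342 and 251 bp.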

How the data were processed

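Peak lists of 4 libraries were analysed, 1 each for HNF6 on day 10, HNF6 on day 5, GATA6 on day 10 and NKX6.1 on day 13. Groups came from sample titles. The submitters' processing notes name Bowtie2 2.3.4.1, MACS2 2.1.1.20160309 and hg19. Each deposited row holds a position, a name and the authors' score, whose scale no source used here defines. Scores were therefore ranked only within a list, and read depth is unknown. The authors' threshold and use of inputs set which weak regions were listed.

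Rows sharing coordinates became 1 region and took their highest score. Gene spans are the hg19 spans fixed with the members. Regions sharing at least 1 bp overlap. Counts were made in pandas 2.3.3 (Python 3.11.15, numpy 2.4.6), checked against bedtools 2.31.1 and tested on simulated data. Intervals are Wilson 95% intervals (statsmodels 0.14.6). Densities use the farthest listed position per chromosome as its length. Figures were drawn with matplotlib 3.10.9. Named by rule are the 5 strongest HNF6 regions of day 10 per window, up to 5 regions of each other list, up to 5 per list at or within 5 kb of the span, up to 5 shared with other lists, and those at the window edges. Any further region was singled out after its values were seen. Genes of like pattern were to be named from an hg19 annotation, which was not used here.

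The members, lists and measures were chosen with earlier results of these data known. The neighbour counts, the distance of 20 kb and the motifs were added after seeing the data. Alternatives were other windows, overlaps, score limits, unmerged rows and neighbour distances.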

Additional observations from a re-analysis of the deposited data

How the results depend on the processing

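Of the compared values, those that moved depended on how far the window reached, on weak regions or on the neighbour distance. With 50 kb on either side of the span, HNF6 regions of day 10 numbered 48 in place of 78, 17 of them at ONECUT2, GATA6 regions 5 in place of 9 and day 5 regions 1 in place of 2. Among regions above the median score of their list, ONECUT2 kept 22 HNF6 regions, and the 3 genes had 4 GATA6 regions and 4 HNF6 regions with GATA6. With 100 kb, GATA6 and NKX6.1 regions near ONECUT2 numbered 1 each in place of 2. The other counts with 100 kb, the overlap rules, the median percentiles and the counts of the highest decile stayed within 1.5 times or within the interval of the main value. Neighbour distances of 5, 25 and 50 kb were chosen after seeing the data. The number of listed regions at least as crowded as the most crowded one was 6 within 5 kb and 14 within 50 kb for ONECUT1, 240 and 88 for ONECUT2, and 58 and 55 for ONECUT3 (22 within 25 kb). Strong neighbours were compared at the highest cutoff that at least 20 regions of the list reached. It was 2 within 5 kb, 4 within 12.5 kb, 5 within 25 kb and 7 within 50 kb, so the sets differed in size. Those near ONECUT genes made up 13.5% of the 163 regions within 5 kb and 22 of 22 within 12.5 kb. They made up 27 of 30 within 25 kb and 19 of 20 within 50 kb. The cause of these shifts was not tested. No paired analysis was possible because each factor and day had 1 library. Depth was unknown and the GATA6 list is partial, so a region absent from a list is not shown to be unbound.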
